A study of Mus musculus with 18 samples.

Results

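Interferon-stimulated genes are the genes that cells switch on after interferon binds its receptors. The 33 examined here were listed by symbol, by a rule that uses no measured value, and matched by Ensembl identifier to the 51435 genes of the deposited tables, in which all 33 were found. They were read by RNA-seq in left ventricles, 9 from WT and 9 from WWP2 Mut/Mut mice (labelled KO). The mice were male C57BL/6J littermates, and all received angiotensin II (AngII) at 500 ng/kg/min for 28 days from 8 weeks of age. WWP2 Mut/Mut mice carry a germline deletion of 4 bp within exon 2 of Wwp2, the gene of an E3 ubiquitin ligase, so that no cell type is targeted in particular. The deletion disrupts the full-length and N-terminal isoforms and leaves the C-terminal one. Each library is 1 mouse, and no mouse without AngII was part of the comparison. The comparison asks whether the interferon program of the pressure-loaded ventricle differed between the genotypes, which single genes and hearts set its mean, and how far the genes moved together.

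Type I interferons signal through the receptor chains IFNAR1 and IFNAR2 and the kinases JAK1 and TYK2 to a complex that holds STAT2 and IRF9 and binds the interferon-stimulated response element (ISRE) in the promoters of its targets. Interferon gamma signals through IFNGR1 and IFNGR2, and many of its targets carry the gamma-activated site (GAS). The target genes encode sensors of viral RNA and DNA, proteins that block viral replication, the ubiquitin-like modifier ISG15, GTPases that attack the vacuoles of intracellular microbes, and the factors that amplify the response, and many cells express them at a low level with no infection.

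Promoter sequence was in hand for 25 of the 33 genes, as 30 start sites in RefSeq (GRCm38.p6). No entry was used for Usp18, Mx1, Mx2, Oas2, Rtp4, Parp14, Zbp1 and Dhx58. The 250 bases before each start were searched on both strands for the ISRE core GAAANNGAAA, which reads TTTCNNTTTC on the other strand, and for the GAS TTCNNNGAA, which reads the same on both. The ISRE core was found for 14 of the 25 genes and in 2.98% of all 32851 promoters of that length. It occurred at more than 1 position for 7 of the 25 genes, against 0.18% of all promoters. The GAS was found for 6 of the 25 genes and in 7.02% of all promoters, and both motifs together for 4 genes and in 0.332% of promoters. The windows below were picked from the genes described in the results to show the forms these matches took, with every match in capitals and 20 flanking bases on either side in lower case, 5′ to 3′ on the strand of the gene.
Isg15, chr4:156200855-156200916, minus strand, 3 overlapping ISRE cores: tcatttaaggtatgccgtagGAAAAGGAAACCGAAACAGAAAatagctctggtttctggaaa
Ifit1, chr19:34640765-34640833, plus strand, 2 ISRE cores: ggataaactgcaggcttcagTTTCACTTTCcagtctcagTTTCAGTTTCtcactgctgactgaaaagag
Ifit3, chr19:34583353-34583436, plus strand, 2 ISRE cores: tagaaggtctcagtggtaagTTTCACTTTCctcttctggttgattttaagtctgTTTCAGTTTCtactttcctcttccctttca
Bst2, chr8:71537567-71537628, minus strand, a GAS overlapping 2 ISRE cores: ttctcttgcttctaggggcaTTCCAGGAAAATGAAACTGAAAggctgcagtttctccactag
Irf1, chr11:53769904-53769952, plus strand, a GAS alone: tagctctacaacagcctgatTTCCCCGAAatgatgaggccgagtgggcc
Igtp, chr11:58199491-58199551, plus strand, a GAS followed by 1 ISRE core: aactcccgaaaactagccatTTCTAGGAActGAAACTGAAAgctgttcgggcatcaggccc
For Bst2 the GAS directly overlaps the first of the 2 ISRE cores alone, and the 2 cores overlap each other. Neither motif was matched in the window of Irf7, Irf9, Ifih1, Ddx58, Ifi44, Ifi35, Xaf1, Oasl2 or Samd9l, which says only that these letters were not in these 250 bases.

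The library totals were 24566994 to 37451087 expected counts. Wwp2 itself, the targeted gene, was at 3.83 to 6.01 TPM in WT hearts and at 1.19 to 3.00 TPM in WWP2 Mut/Mut hearts, with no overlap. Each of the 4 lanes held both genotypes. RNA concentration was 110 ± 51.5 ng/µl in WT and 175 ± 73.6 ng/µl in WWP2 Mut/Mut samples (SD, n = 9 each, two-sided exact permutation test, p = 0.0422), and the entry for WT heart 43-3, 1.68 ng/µl, was far below the next lowest of the 18 at 88.6 ng/µl and may be a typing error, though it was used as deposited. Without that heart the WT mean was 124 ± 33.8 ng/µl (SD, n = 8, two-sided exact permutation test, p = 0.0872). The atrial gene Myl7 was at 48.7 to 338 TPM in 5 hearts (WT 43-3, 45-1 and 84-2, WWP2 Mut/Mut 22-3 and 8-2) and at 0.09 to 7.14 TPM in the other 13. The liver gene Alb was highest in WT hearts 45-1 and 16-1, at 113 and 45.2 TPM. All 7 liver markers were lower in WWP2 Mut/Mut hearts at an unadjusted p below 0.05, beside 2.57% of all genes tested, and none had an adjusted p below 0.05. The part of these differences in the results was not tested, and the fits without these hearts stand beside the results they bear on.

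The interferon-stimulated genes were expressed at a low level. The highest was Bst2, which encodes tetherin, a membrane protein that holds budding virus at the cell surface, at a mean of 39.6 TPM over the 18 hearts. The lowest was Oas3 at 0.0728 TPM. The median over the 33 genes was 3.46 TPM, and 31 of them passed 1 TPM in at least 2 hearts, all but Oas3 and Mx1. Below Bst2 came Ifi35 at 14.6 TPM, Irf1 at 11.4, Xaf1 at 11.3, Isg15 at 9.40 and Irf7 at 8.83, and of these neighbours Irf1 and Xaf1, and Isg15 and Irf7, differed by less than the SD between hearts of either genotype. Spread between hearts was moderate. The coefficient of variation over the 18 hearts had a median of 20.2% for the 33 genes and of 24.9% for all 12405 expressed genes, and ran from 10.96% for Ifi35 to 49.4% for Mx1.

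Between the genotypes, none of the 33 genes was called. Genotype was tested with edgeR's quasi-likelihood test on all 24804 genes with more than 1 count, with lane and RNA concentration in the model, and a gene was called at a Benjamini-Hochberg adjusted p below 0.05, which 1 gene (0.00403%), Wwp2, passed. An unadjusted p below 0.05 was found for 4 of the 33 (Irgm1, Irf9, Irf7 and Igtp), all higher in WWP2 Mut/Mut hearts, where 1.09% of all genes tested, and 0.629% of expressed genes, did so in that direction and 3.66% in either. DESeq2 also called none of the 33 and also gave 4, and limma on TPM called none and gave 0. The log2 fold change, WWP2 Mut/Mut over WT, was above 0 for 29 of the 33, beside 48.1% of all genes tested and 48.3% of expressed genes, and its median was 0.17 beside -0.01. The TPM of the genotypes overlapped for every one of the 33, and among all expressed genes 0.00806% did not overlap. In whole tissue, fewer cells that express a gene and less RNA per cell cannot be told apart.

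**Figure D1:**
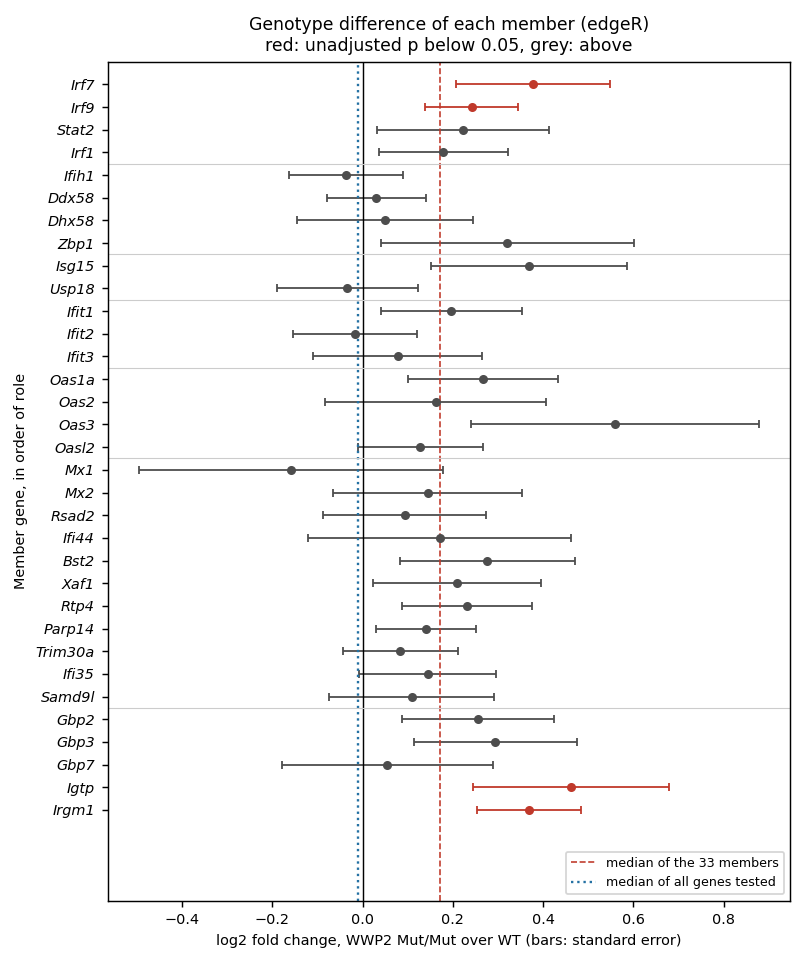
The log2 fold change of each of the 33 genes, WWP2 Mut/Mut over WT, on the x axis, from edgeR with lane and RNA concentration in the model (points, with bars of 1 standard error, in order of role on the y axis). The dashed line is the median of the 33 genes, 0.17, the dotted line that of all genes tested, -0.01, and the 4 genes in red had an unadjusted p below 0.05, though none had an adjusted p below 0.05.

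The size of this tilt depended on the scale and on single hearts. TMM normalization, which edgeR uses, sets each library so that most genes have equal levels, whereas the deposited TPM does not, and on TPM the median log2 fold change of all expressed genes was -0.13 (limma, log2(TPM + 1)). On that scale 16 of the 31 expressed interferon-stimulated genes had a positive fold change, with a median of 0.01, beside 13.5% of all expressed genes. The median of the interferon-stimulated genes minus that of all expressed genes was 0.18 with edgeR and 0.14 with limma, and 0.08 to 0.24 over the 35 fits run. Leaving out WWP2 Mut/Mut heart 24-3 lowered the median of the 33 genes to 0.08, with 23 positive and 1 at an unadjusted p below 0.05. Leaving out WWP2 Mut/Mut heart 53-1 raised it to 0.23, with all 33 positive and 6 at an unadjusted p below 0.05. Without WT heart 25-3 or WWP2 Mut/Mut heart 54-1 the median was 0.11 and 0.12 and 1 gene had an unadjusted p below 0.05, and without WT heart 45-1 or 16-1, or WWP2 Mut/Mut heart 52-1 or 8-2, 2 genes did. Without the 5 hearts with Myl7 the median was 0.18, with 29 positive and 2 at an unadjusted p below 0.05, and without the 2 hearts with most Alb it was 0.13, with 25 positive and 1 at an unadjusted p below 0.05. Within lanes 1 to 4, the median difference of the 33 genes was -0.03, 0.28, 0.12 and 0.10 in log2 CPM and 0.08, 0.04, -0.20 and 0.03 in log2(TPM + 1).

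**Figure D2:**
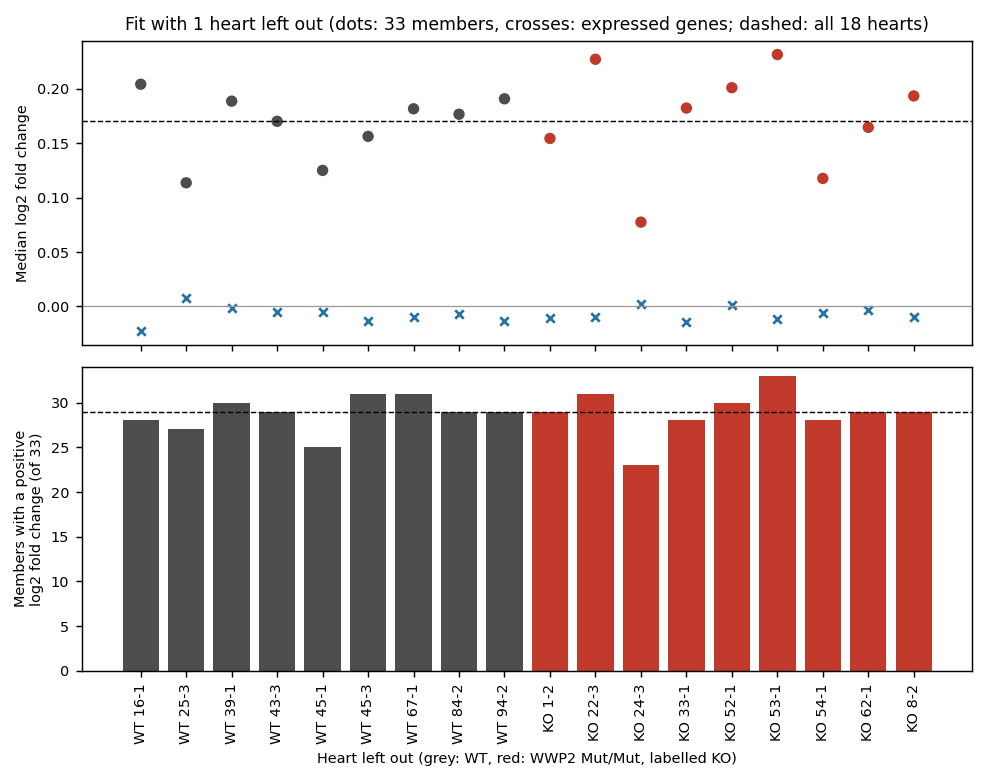
The genotype fit repeated with each heart left out in turn (x axis), with the median log2 fold change of the 33 genes as dots and of all expressed genes as crosses (upper panel) and the number of the 33 with a positive fold change as bars (lower panel, from 0). The dashed lines are the values with all 18 hearts, 0.17 and 29, and the medians of the 33 genes run from 0.08 without WWP2 Mut/Mut heart 24-3 to 0.23 without WWP2 Mut/Mut heart 53-1.

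The transcription factors of the pathway were Irf7, Irf9, Stat2 and Irf1. All 4 had positive fold changes with edgeR, with a median of 0.23, whereas Stat2 and Irf1 were negative with limma on log2(TPM + 1). Irf7, which amplifies type I interferon production and lies on chromosome 7 from 141262706 to 141266481 (GRCm38), ran from 5.51 TPM in WT heart 25-3 through a median of 9.16 to 11.02 in WT heart 94-2, and from 6.94 in WWP2 Mut/Mut heart 33-1 through 8.81 to 12.01 in WWP2 Mut/Mut heart 24-3. The genotypes overlapped over most of that range. Its log2 fold change was 0.38 (standard error 0.171, unadjusted p = 0.0397, adjusted p = 1 by edgeR's quasi-likelihood test), it lay between 0.26 and 0.44 with 1 heart left out, and its unadjusted p was 0.197 without WWP2 Mut/Mut heart 24-3. For Irf7 the fold change also depended on the model, at 0.24 with lane alone (unadjusted p = 0.154), 0.20 without covariates (unadjusted p = 0.200) and 0.18 with limma on log2(TPM + 1) (unadjusted p = 0.188). Irf9, the DNA-binding subunit of the STAT complex, ran from 5.07 through 6.80 to 8.57 TPM in WT hearts and from 5.20 through 7.30 to 8.25 TPM in WWP2 Mut/Mut hearts, which overlapped almost fully. Its log2 fold change was 0.24 (standard error 0.103, unadjusted p = 0.0308, adjusted p = 1), its unadjusted p was 0.208 without WWP2 Mut/Mut heart 24-3, and with limma on log2(TPM + 1) it was 0.08 (unadjusted p = 0.525).

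Stat2, the partner of IRF9, had the widest range of the 4. It ran from 4.13 through 4.53 to 6.96 TPM in WT hearts and from 2.15 in WWP2 Mut/Mut heart 53-1 through 3.92 to 8.66 in WWP2 Mut/Mut heart 52-1. Both extremes were thus WWP2 Mut/Mut hearts, and WT heart 94-2 stood apart from the other 8 WT hearts, the next of which was at 5.48 TPM. Its log2 fold change was 0.22 (standard error 0.191, unadjusted p = 0.260), and it was 0.05 without WWP2 Mut/Mut heart 52-1 and 0.36 without heart 53-1. Irf1, which answers to interferon gamma and tumor necrosis factor, was the steadiest, from 10.1 through 11.8 to 12.2 TPM in WT hearts and from 9.01 through 10.8 to 14.1 in WWP2 Mut/Mut hearts, where hearts 24-3, 33-1 and 54-1, at 13.6 to 14.1 TPM, were above every WT heart. Its log2 fold change was 0.18, and 0.02 without WWP2 Mut/Mut heart 24-3.

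**Figure D3:**
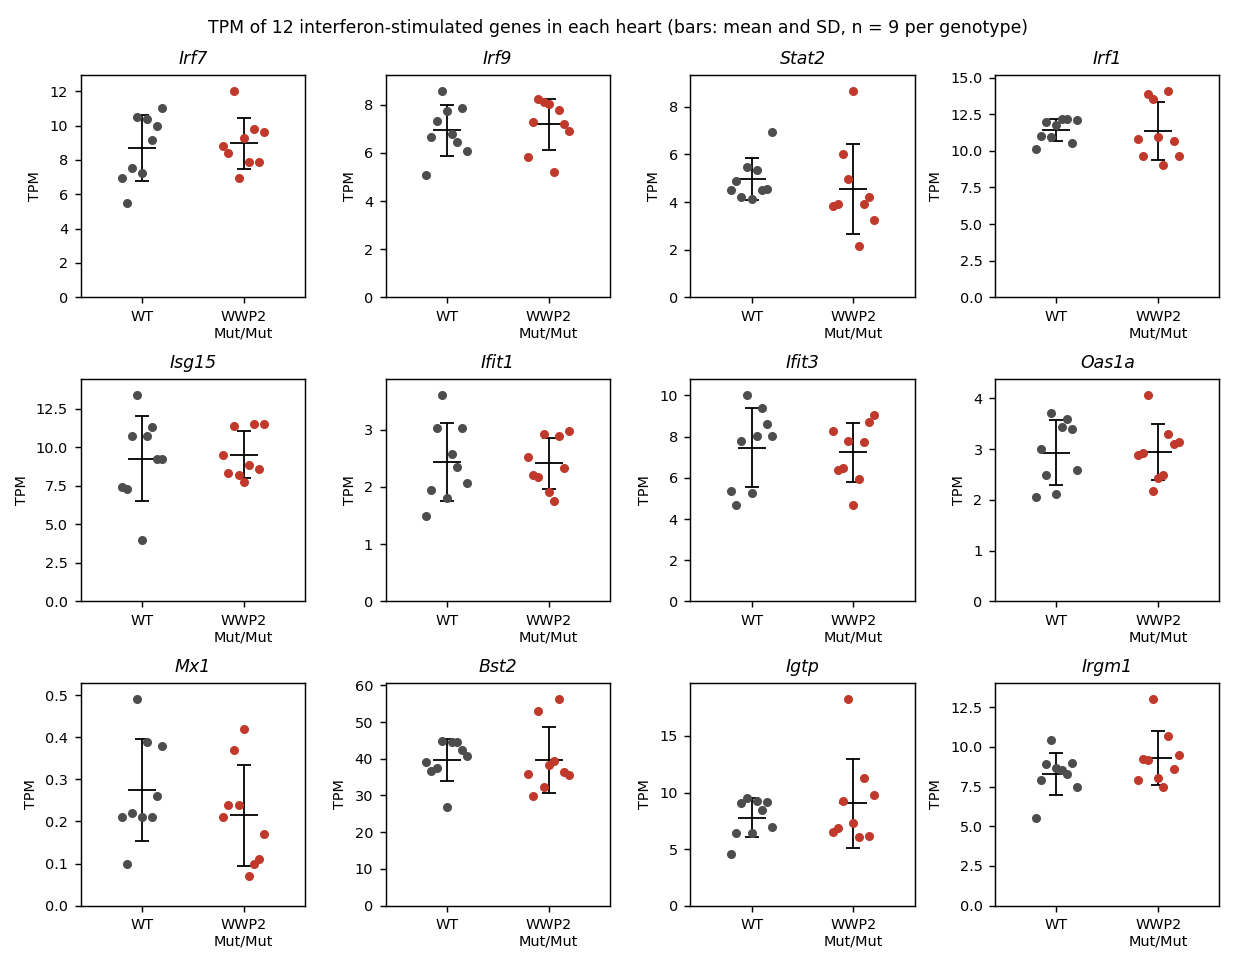
TPM (y axis, from 0) of 12 interferon-stimulated genes in each of the 9 WT (grey) and 9 WWP2 Mut/Mut (red) hearts, with the mean and SD of each genotype as bars. The genotypes overlap for all 12, and single hearts stand apart for Stat2 (6.96 TPM in a WT heart), Bst2 (26.7 TPM in a WT heart) and Igtp (18.2 TPM in a WWP2 Mut/Mut heart).

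The sensors of foreign nucleic acid were Ifih1 (MDA5) and Ddx58 (RIG-I), which detect viral RNA, their regulator Dhx58 (LGP2), and Zbp1, which binds nucleic acid in the Z form and can start necroptosis. They had log2 fold changes of -0.04, 0.03, 0.05 and 0.32, none with an unadjusted p below 0.05, and with limma on log2(TPM + 1) all but Zbp1 were negative. Mean levels were 1.69 TPM for Ifih1, 3.02 for Ddx58, 1.081 for Dhx58 and 1.28 for Zbp1. Zbp1 varied most, from 0.48 to 2.51 TPM in WT hearts and from 0.47 to 1.77 in WWP2 Mut/Mut hearts, on 22 to 102 counts.

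Isg15 encodes the ubiquitin-like protein that is attached to other proteins after interferon, and Usp18 the protease that removes it and damps the receptor. Isg15 ran from 3.98 TPM in WT heart 45-1 through 9.27 to 13.4 in WT heart 43-3, and from 7.76 through 8.87 to 11.5 TPM in WWP2 Mut/Mut hearts, so that the WT hearts held both ends. Its log2 fold change was 0.37 (standard error 0.217, unadjusted p = 0.106), and 0.18 without WT heart 45-1. Usp18 was at 2.57 ± 0.544 TPM in WT and 2.24 ± 0.326 TPM in WWP2 Mut/Mut hearts (SD, n = 9 each), with a log2 fold change of -0.03.

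The IFIT genes, which sit side by side on chromosome 19, encode proteins that bind viral RNA and block its translation. Ifit1 ran from 1.49 through 2.34 to 3.60 TPM in WT hearts and from 1.75 through 2.33 to 2.98 TPM in WWP2 Mut/Mut hearts, with medians almost equal, and its log2 fold change was 0.20 (standard error 0.157, unadjusted p = 0.225). Ifit3 ran from 4.67 through 8.02 to 10.0 TPM and from 4.69 through 7.72 to 9.04 TPM, with a log2 fold change of 0.08. Ifit2 was at 2.78 ± 0.748 and 2.73 ± 0.774 TPM (SD, n = 9 each), with a log2 fold change of -0.02. On TPM, WT heart 43-3 was the highest of all 18 hearts for each of the 3 genes, and WT heart 16-1 the lowest for Ifit1 and Ifit2. Neither held in log2 CPM.

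The OAS genes encode enzymes that make 2′-5′-linked oligoadenylate, the activator of RNase L, and Oasl2 encodes a relative. Oas1a ran from 2.05 through 3.00 to 3.71 TPM in WT hearts and from 2.18 through 2.92 to 4.06 in WWP2 Mut/Mut hearts, and its log2 fold change was 0.27 (standard error 0.166, unadjusted p = 0.125). Oas3, at 0.04 to 0.12 TPM in WT hearts and 0.02 to 0.15 TPM in WWP2 Mut/Mut hearts, rested on 6 to 26 counts, and its log2 fold change of 0.56, the largest of the 33 in size, had a standard error of 0.320 and an unadjusted p of 0.0975. Oas2 had log2 fold changes of 0.16 with all hearts and -0.17 without WWP2 Mut/Mut heart 24-3, and Oasl2, negative with limma on log2(TPM + 1), had one of 0.13.

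The effector genes outside these families were Mx1, Mx2, Rsad2, Ifi44, Bst2, Xaf1, Rtp4, Parp14, Trim30a, Ifi35 and Samd9l. Of these 11, 10 had a positive fold change with edgeR and none an unadjusted p below 0.05, whereas with limma on log2(TPM + 1) Rsad2, Parp14, Trim30a, Ifi35 and Samd9l were negative. Bst2 ran from 26.7 in WT heart 45-1 through 40.7 to 44.9 TPM in WT hearts and from 29.8 through 36.5 to 56.2 TPM in WWP2 Mut/Mut hearts. The means were 39.7 and 39.6 TPM, the lowest WT heart stood apart from the next at 36.7 TPM, and WWP2 Mut/Mut hearts 54-1 and 24-3, at 56.15 and 52.96 TPM, were above every WT heart. The log2 fold change was 0.28 (standard error 0.194, unadjusted p = 0.172), 0.12 without WWP2 Mut/Mut heart 24-3 and 0.15 without WT heart 45-1. Mx1, a dynamin-like restriction factor whose gene is defective in most inbred mouse strains, ran from 0.10 through 0.22 to 0.49 TPM in WT hearts and from 0.07 through 0.21 to 0.42 TPM in WWP2 Mut/Mut hearts, on 10 to 53 counts. Mx1 had the lowest log2 fold change of the 33, -0.16 (standard error 0.337, unadjusted p = 0.641). Rtp4 ran from 5.74 through 6.79 to 8.48 TPM and from 5.44 through 6.60 to 8.67 TPM, and its log2 fold change was 0.23 (standard error 0.144, unadjusted p = 0.124). The fold changes of the other 8, Mx2, Rsad2, Ifi44, Xaf1, Parp14, Trim30a, Ifi35 and Samd9l, lay between 0.08 and 0.21. Rsad2, the gene of the antiviral enzyme viperin, and Ifi44 were lowest of all in WT heart 45-1, at 2.34 and 0.40 TPM, where their medians in WT hearts were 4.22 and 1.80 TPM, and leaving out that heart took their log2 fold changes to -0.06 and -0.05.

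The GTPases, which respond to interferon gamma above all, included the heart that stood farthest from the rest of its genotype, for Igtp. The 5 were Gbp2, Gbp3 and Gbp7, guanylate-binding proteins clustered on chromosome 3, and the immunity-related GTPases Igtp and Irgm1 on chromosome 11. All 5 had positive fold changes with edgeR, with a median of 0.29, and 2 had an unadjusted p below 0.05, whereas Gbp7 was negative with limma on log2(TPM + 1). Irgm1 ran from 5.53 through 8.51 to 10.4 TPM in WT hearts and from 7.45 through 9.15 to 12.98 TPM in WWP2 Mut/Mut hearts. Only the lowest WT heart, 16-1, lay below the whole WWP2 Mut/Mut range, and hearts 33-1 and 54-1 of the 9 WWP2 Mut/Mut hearts lay above the whole WT range. Its log2 fold change was 0.37 (standard error 0.115, unadjusted p = 0.00472, adjusted p = 0.927), and it was the one gene of the 33 whose unadjusted p stayed below 0.05 with each of the 18 hearts left out in turn, at 0.32 to 0.43. On log2(TPM + 1) it was 0.17 (limma, unadjusted p = 0.235).

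Igtp ran from 4.61 through 8.44 to 9.51 TPM in WT hearts and from 6.03 through 7.30 to 18.2 TPM in WWP2 Mut/Mut hearts, so the WWP2 Mut/Mut median was the lower one. Heart 33-1, at 18.2 TPM, was far above the next WWP2 Mut/Mut heart at 11.3 TPM. The log2 fold change was 0.46 (standard error 0.217, unadjusted p = 0.0474, adjusted p = 1), 0.34 without heart 33-1 (unadjusted p = 0.0673), and 0.23 with limma on log2(TPM + 1) (unadjusted p = 0.308). Gbp3 ran from 3.66 through 5.79 to 6.69 TPM and from 3.73 through 5.59 to 8.10 TPM, and its log2 fold change was 0.29 (standard error 0.180, unadjusted p = 0.120). Heart 33-1 was the highest of the 18 hearts on TPM for all 5 GTPases, and for 4 of 7 other GTPases of these families, Irgm2 (11.8 TPM, next 7.21), Iigp1 (20.2 TPM, next 15.9), Gbp4 and Gbp5, but not Gbp6, Gbp9 and Ifi47. In log2 CPM it was the highest for 3 of the 5 and heart 54-1 for the other 2, with median deviations of 0.55 and 0.57. Ifng was listed at 0 TPM in that heart, but 0 TPM was also the WWP2 Mut/Mut median and no heart had more than 2 counts, so this value does not set the heart apart. The heart also had the lowest TPM sum of the 18 (671770), a coverage fraction of 0.0316 in a range of 0.0288 to 0.0540, and the highest summed dendritic cell markers (0.40 TPM, with a WWP2 Mut/Mut median of 0.30). The part of these in the GTPase values was not tested. The heart was not high for every gene of the list. Irf7 was at 6.94 TPM there, the lowest of the WWP2 Mut/Mut hearts, and 7 of the 33 genes were among their 3 lowest values there. On the other side, 11 of the 33 were among their 3 highest values on TPM and 21 were above their mean. Parp14, not a GTPase, was at its highest of all 18 hearts there (4.68 TPM). The median deviation of the 33 genes from their means in heart 33-1 was 0.08 in log2(TPM + 1) and 0.14 in log2 CPM.

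Some of these values rest on reads shared between genes. The expected count was not a whole number in at least 1 heart for 11 of the 33 genes, which marks reads that RSEM divided between genes, and in 9 or more hearts for Ifit1, Ifit3, Oas1a, Rtp4, Trim30a, Gbp7 and Igtp. Igtp overlaps Irgm2 on its own strand, and 12 of the 33 overlap some other gene in the annotation. The split between copies is uncertain for the 11 genes with such counts. Irf7, Irf1, Dhx58, Usp18, Oas2, Ifi35 and Gbp2 overlap a gene on the other strand only and had whole counts in all 18 hearts. The strand setting of the counting is not given in the sources used here.

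Which hearts carried the program differed with the scale. On TPM, WT heart 43-3 was the highest of all 18 for 11 of the 33 genes and among the 3 highest for 25, and WWP2 Mut/Mut heart 53-1 was the lowest for 12 and among the 3 lowest for 22. The median deviation of the 33 genes from their means, in log2(TPM + 1), was 0.24 in heart 43-3 and -0.30 in heart 53-1. All expressed genes had a median deviation of 0.31 in heart 43-3 and -0.18 in heart 53-1 on that scale. Heart 43-3 also had the highest summed markers of macrophages and monocytes (323 TPM, range of the other WT hearts down to 172) and of fibroblasts (381 TPM, down to 140), and heart 53-1 the lowest Ptprc, the leukocyte marker, at 0.51 TPM where the highest heart had 2.45. In heart 43-3 the summed cardiomyocyte markers were also the highest of all 18, at 20042 TPM, of which Actc1 gave 11208, and the highest WWP2 Mut/Mut sum was 16612 TPM. Of the 2 markers of plasmacytoid dendritic cells, a main source of type I interferon, Siglech was at no more than 0.29 TPM in any heart and Ly6d ran from 0.51 to 1.18 TPM in WT and from 0.40 to 2.42 TPM in WWP2 Mut/Mut hearts. Ly6d had a log2 fold change of 0.82 in WWP2 Mut/Mut against WT hearts (unadjusted p = 0.0205, adjusted p = 1 by edgeR), and Siglech one of -0.06 (unadjusted p = 0.901). The part of these cells in the values was not tested.

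On log2 CPM after TMM normalization, where the median deviation of all expressed genes was between -0.05 and 0.02 in every heart, heart 43-3 was the highest for none of the 33 and WWP2 Mut/Mut heart 24-3 was the highest for 11. The median deviation was 0.36 in heart 24-3 and 0.33 in WWP2 Mut/Mut heart 54-1. It was lowest in WT heart 45-1 at -0.52 and WT heart 25-3 at -0.35, which were the lowest of all for 11 and 10 genes, ahead of WWP2 Mut/Mut heart 53-1 at -0.24 with 8. Heart 45-1 was also the one with most Myl7 and Alb. Over the 9 hearts of a genotype, the median deviation was -0.06 ± 0.233 in WT and 0.06 ± 0.221 in WWP2 Mut/Mut hearts in log2 CPM, and 0.01 ± 0.141 and -0.01 ± 0.136 in log2(TPM + 1) (SD, n = 9 each), so the genotypes differed by less than the spread between hearts on both scales, and in opposite directions.

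**Figure D4:**
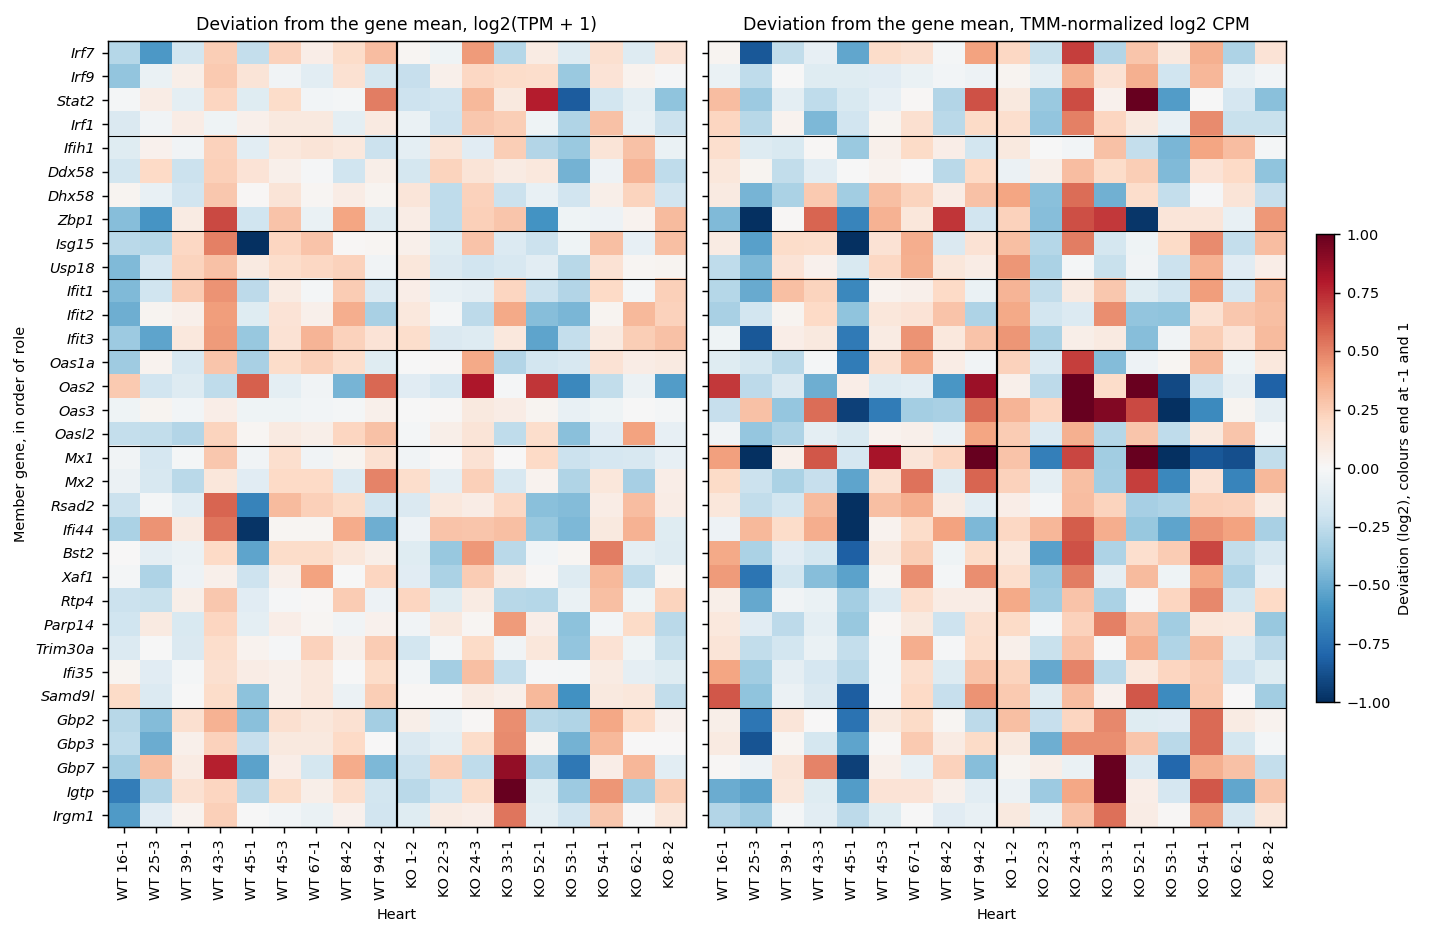
Deviation of each of the 33 genes (rows, in order of role) from its mean over the 18 hearts (columns, WT left of the line and KO, the WWP2 Mut/Mut hearts, right of it), in log2(TPM + 1) on the left and TMM-normalized log2 CPM on the right, with red above and blue below the mean. Heart WT 43-3 is red for most genes on the left alone, hearts WT 25-3 and WT 45-1 are blue on the right, KO 24-3 is red on both, KO 53-1 is blue on both, and KO 33-1 is red for the 5 GTPases at the bottom.

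The genes moved together across hearts. Over the 465 pairs of the 31 expressed genes, the median Pearson r of log2(TPM + 1) was 0.436 in the 9 WT hearts and 0.313 in the 9 WWP2 Mut/Mut hearts, and 85.4% and 77.4% of the pairs were positive. All pairs of expressed genes had median r of 0.351 and 0.161, since TPM moves most genes of a heart together. On log2 CPM, which takes out that common shift, all pairs had a median r of 0.00 in both genotypes, and the interferon-stimulated genes 0.588 in WT and 0.382 in WWP2 Mut/Mut hearts. On that scale the 31 genes still moved with 2 measures of the libraries. Their median r was 0.451 with the TPM sum and 0.338 with the gene body coverage fraction, where all expressed genes had -0.03 and -0.05. The part of these measures in the covariation was not tested. With 1 heart left out, the median in log2(TPM + 1) was 0.331 to 0.507 in WT and 0.148 to 0.397 in WWP2 Mut/Mut hearts, so the ranges overlap, and after lane and RNA concentration were removed it was 0.392 in WT and 0.486 in WWP2 Mut/Mut hearts, the other order. These are descriptions over pairs that share hearts, and the difference between the genotypes was not tested.

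Within all 18 hearts, centred on the genotype means, the tightest pair was Igtp and Irgm1 (r = 0.890 in log2(TPM + 1) and 0.963 in log2 CPM), which lie on chromosome 11 more than 1000000 bases apart. Stat2 and Oas2 followed in log2 CPM at 0.936 (0.729 on TPM), then Bst2 and Ifi35 at 0.901 (0.694 on TPM). The 10 pairs of GTPases had a median r of 0.724, the 3 IFIT pairs 0.790, the 45 pairs of other effectors 0.385 and the 6 pairs of transcription factors 0.403 (log2(TPM + 1)). The 8 pairs less than 1000000 bases apart had a median of 0.712 and all other pairs one of 0.355. The neighbours Oas1a and Oas2 were an exception at -0.209 (0.118 in log2 CPM). In log2(TPM + 1), Oas2 had the lowest mean r with the other genes (-0.01) and Gbp3 the highest (0.507), whereas in log2 CPM the lowest was Ifit2 (0.209), Oas2 was at 0.280 and Gbp3 was again the highest (0.597). Genes with the ISRE core in the window shown above had a median pair r of 0.475 (78 pairs) and matched genes without it 0.276 (55 pairs), a gap that narrowed to 0.506 against 0.433 in log2 CPM.

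**Figure D5:**
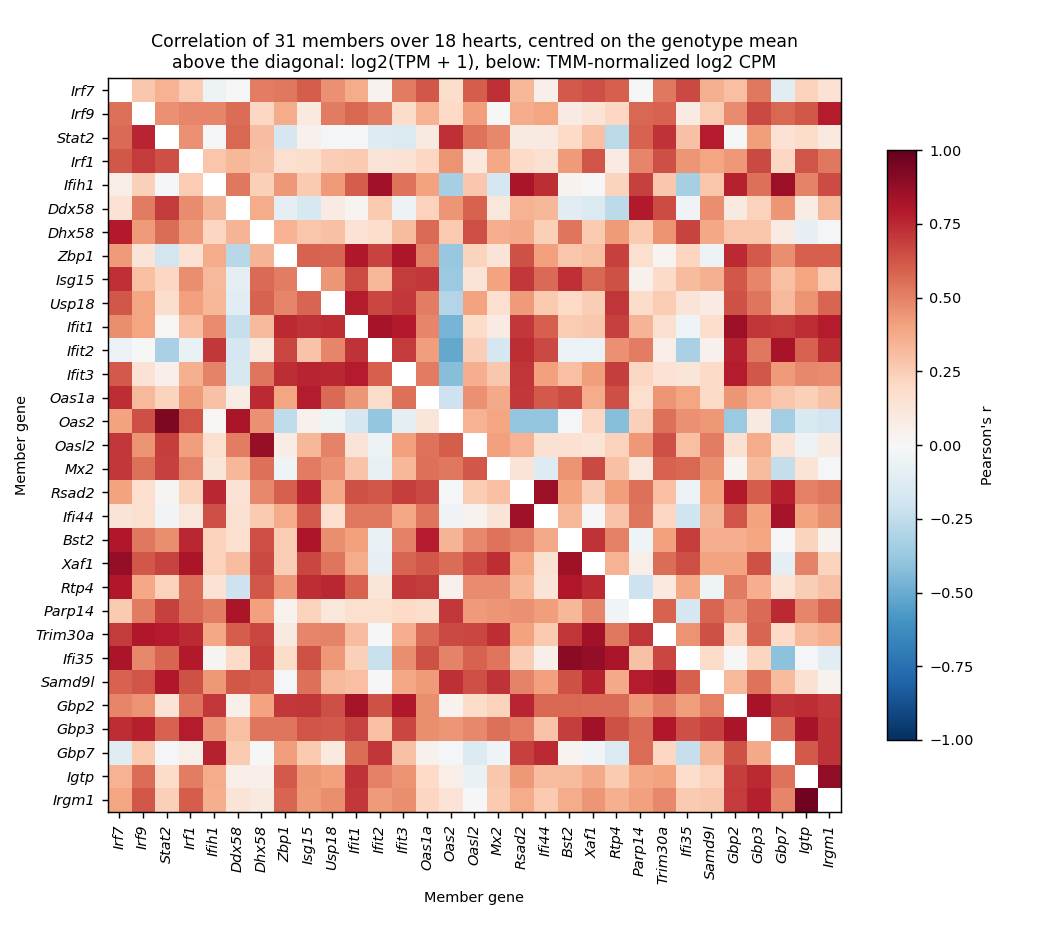
Pearson's r between the 31 expressed genes over the 18 hearts, centred on the genotype mean (color from -1 in blue to 1 in red), with log2(TPM + 1) above the diagonal and TMM-normalized log2 CPM below it. The GTPases form a red block at the lower right, Oas2 is blue with the IFIT genes above the diagonal, and more of the lower triangle is red, with a median r of 0.455 against 0.360 above.

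Irf7 was taken as the reference of the response and correlated with every expressed gene over the 18 hearts, centred on the genotype means, with a permutation test of 100000 resamples within genotypes and Benjamini-Hochberg adjustment over all 12404 genes. None of the other 30 genes passed an adjusted p of 0.05, as did 0.0% of all genes, whereas 13 of the 30 had an unadjusted permutation p below 0.05, beside 9.77% of all genes. The median r was 0.364 (0.577 in log2 CPM), and -0.07 (-0.03) over all expressed genes. The closest was Mx2, with r = 0.732 (permutation p = 0.00119, adjusted p = 0.205) and rho = 0.744 (permutation p = 0.00107), with 0.697 in WT and 0.803 in WWP2 Mut/Mut hearts and 0.714 without WT heart 25-3 and WWP2 Mut/Mut heart 24-3, the 2 hearts farthest from the median of Irf7. Ifi35 followed at r = 0.659 (permutation p = 0.000840, adjusted p = 0.185) and rho = 0.703 (permutation p = 0.000990), with 0.452 without those hearts. For Xaf1, Oas1a, Bst2 and Isg15 r was 0.642, 0.625, 0.616 and 0.608 (permutation p = 0.00466, 0.0104, 0.00479 and 0.0156, adjusted p = 0.285, 0.343, 0.287 and 0.381). For the same genes rho was 0.611, 0.687, 0.692 and 0.726 (permutation p = 0.00894, 0.00488, 0.00111 and 0.00149), and r without those hearts was 0.456, 0.731, 0.596 and 0.611. In log2 CPM, r with Irf7 was 0.878 for Xaf1, the highest of these. Ifit2, Ifih1, Parp14, Ddx58, Ifi44 and Gbp7 had r between -0.104 and 0.049. Over all 30 genes, the median r without those hearts was 0.324.

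A measure of library quality moved with some of these genes. The deposited table gives a gene body coverage fraction of 0.0288 to 0.0540, named for the bottom of the gene body and not defined further, and 62.8% of all expressed genes correlated with it at an adjusted permutation p below 0.05 on TPM (53.1% negatively and 9.74% positively). Of the 31 interferon-stimulated genes 9 did, 7 negatively (Ifit2, Gbp7, Ifih1, Irgm1, Ifi44, Ifit1 and Rsad2) and 2 positively (Ifi35 and Oas2). Ifit2 had r = -0.845 (permutation p = 8.00e-05, adjusted p = 0.000262) and rho = -0.749 (permutation p = 0.000960), with -0.876 in WT and -0.818 in WWP2 Mut/Mut hearts, -0.762 without WT heart 16-1 and WWP2 Mut/Mut heart 52-1, and -0.583 in log2 CPM. Oas2 had r = 0.599 (permutation p = 0.0111, adjusted p = 0.0197) and rho = 0.549 (permutation p = 0.0241), with 0.513 without those hearts. Several of the negative relations were weaker in log2 CPM, where r was 0.03 for Irgm1, -0.15 for Rsad2, -0.17 for Ifit1 and -0.21 for Ifih1. Positive ones were strong on that scale, at 0.839 for Ifi35, 0.773 for Xaf1, 0.713 for Stat2, 0.692 for Irf1 and 0.663 for Oas2. The median over the 31 genes turned from -0.278, with 11 positive, to 0.338, with 23 positive, beside -0.05 for all expressed genes in log2 CPM. The genotypes did not differ detectably in this fraction (two-sided exact permutation test, p = 0.720). The sum of TPM over all genes, which is below 1000000 because mitochondrial and rRNA genes were removed, correlated with 57.8% of expressed genes (47.3% negatively and 10.5% positively). It correlated with 8 of the 31, negatively with Gbp7, Ifih1, Ifit2 and Irgm1 and positively with Irf7, Bst2, Mx2 and Ifi35. In log2 CPM the median r of the 31 genes with that sum was 0.451, with 27 positive, and that of all expressed genes -0.03. The highest were Ifi35 at 0.864, Irf7 at 0.855, Bst2 at 0.821 and Rtp4 at 0.799. For RNA concentration this held for none of the 31 and 0.0% of all genes, and 2 of the 31 had an unadjusted permutation p below 0.05, beside 2.3% of all genes. With the coverage fraction added to the model, the median log2 fold change of the 33 genes was 0.12, with 29 positive and 4 at an unadjusted p below 0.05.

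Outside the list, the genes whose levels followed the interferon-stimulated genes most closely, by mean r over the 31 genes in log2(TPM + 1), were Tmem229b (0.487), Gbp5 (0.478), Tor4a (0.455), Mgl2, Ccl12, Cd274, Cxcl9, Olfr558, B2m, Anxa2, Gbp4, Gm4070, Phf11d, H2-DMb1 and Creb5 (0.435), where the median of all 12374 other expressed genes was 0.113. Gbp5 and Gbp4 are GTPases, Cxcl9 is an interferon-induced chemokine, B2m is the light chain of class I major histocompatibility molecules and Cd274 encodes PD-L1. By log2 CPM the closest were Gbp4 (0.568), Tap1 (0.568), which carries peptides to class I molecules, and Mcub (0.561), with a median of -0.01 over the other genes.

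The rest of the interferon pathway was read from a list of 85 genes, of which 76 were tested and 9, all ligands, were at 0 in every heart. None was called by edgeR and 4 had an unadjusted p below 0.05, beside the 3.66% of all genes tested, and DESeq2 called none and gave 3. That count was 9 without WWP2 Mut/Mut heart 33-1 or with the coverage fraction in the model, and 6 without heart 53-1. It was 1 with lane alone or without WWP2 Mut/Mut heart 24-3 or 54-1 or WT heart 45-1, and 2 without WWP2 Mut/Mut heart 1-2 or WT heart 25-3. The ligands Ifna1, Ifna2, Ifna4, Ifna5, Ifnb1, Ifne, Ifnk, Ifnl2 and Ifnl3 were those at 0, and Ifng, Il6 and Il27 had means of at most 0.0617 TPM. Ifng, at no more than 2 counts in any heart, was one of the 4 (log2 fold change -2.23, standard error 1.05, unadjusted p = 0.0483), and the others were Ccl5, a T-cell-attracting chemokine (1.55 ± 0.480 TPM in WT and 1.84 ± 0.850 TPM in WWP2 Mut/Mut hearts, SD, n = 9 each, log2 fold change 0.81, standard error 0.256, unadjusted p = 0.00522, adjusted p = 0.943 by edgeR), B2m (284 ± 48.5 and 308 ± 67.03 TPM, log2 fold change 0.36) and Trim25, an E3 ligase that activates RIG-I (4.05 ± 0.704 and 4.27 ± 0.744 TPM, log2 fold change 0.23). Ccl5 rested on 12 to 49 counts per heart, which limits the precision of its fold change, and its TPM overlapped (0.86 to 2.44 in WT and 0.77 to 3.52 in WWP2 Mut/Mut hearts).

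The receptors were present, with Ifnar1 at 4.78 ± 0.779 and 4.67 ± 0.713 TPM, Ifnar2 at 19.8 ± 2.32 and 18.6 ± 1.63 TPM, Ifngr1 at 23.0 ± 3.44 and 20.7 ± 3.85 TPM and Ifngr2 at 44.7 ± 16.8 and 39.9 ± 15.1 TPM, WT first (SD, n = 9 each), and log2 fold changes between -0.13 and 0.13 for the 6 receptor genes. Jak1, Jak2, Tyk2 and Stat3 had log2 fold changes between -0.05 and -0.01. Over all 76 genes tested from that list, 45 had a positive fold change, with a median of 0.06, beside 48.1% of all genes tested. By group these were 29 of 39 other interferon-stimulated genes (median 0.19), 5 of 13 sensors or adaptors (median -0.05), 4 of 6 negative regulators (median 0.10) and 1 of 4 interferon regulatory factors (median -0.06). The rest were 4 of 6 receptors (median 0.01), 1 of 5 kinases or STATs (median -0.02) and 1 of 3 ligands (median -0.45).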

How the data were processed

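The study isolated RNA from left ventricles, prepared poly(A) libraries with a directional kit, aligned reads with STAR 2.5.2b and quantified genes (Ensembl 89, mouse m38) with RSEM 1.2.31, and removed mitochondrial and rRNA genes. The authors deposited expected counts per gene and mouse (5.11% of values not whole), TPM of the same genes, summing to 671770 to 826381 per library, and a sample table with lane, RNA concentration in ng/µl and a gene body coverage fraction. The strand setting of the counting is not given in the sources used here. Depth was 24566994 to 37451087 counts per library, and intervals of single counts were not used. Replicates were separate mice, and no pair agreed within sampling noise (72 pairs).

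Expected counts were rounded and tested with edgeR 4.0.16 (TMM, quasi-likelihood, lane and RNA concentration as covariates). DESeq2 1.42.0, limma 3.58.1 on log2(TPM + 1) and other settings were alternatives, and each heart was left out in turn. On simulated counts for this comparison (24804 genes), edgeR recovered 81 of 100 genes changed by a log2 fold change of 1 and 98 of 100 changed by 2. No smaller change was simulated, and the log2 fold changes of the 33 genes ran from -0.16 to 0.56, so the recovery of differences of their size is not known. Correlations used Python 3.11.15. Values shown in full are those of the pathway's factors, Isg15, Ifit1, Ifit3, Oas1a and Mx1, the 8 genes with the smallest p and genes with an isolated heart. The 33 genes and the pathway and marker lists were chosen with earlier results of these data known. Symbols were matched for 51242 of 51435 identifiers, and gene positions are those of GENCODE vM21.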

Additional observations from a re-analysis of the deposited data

Results flagged for a closer look

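In each genotype, the highest and lowest heart of each of the 33 genes was compared with its nearest neighbour, and 3 hearts stood apart by more than Dixon's critical value for groups of 9. Chance marks about 5% of groups, or about 3.3 of the 66 groups examined. Stat2 was at 6.96 TPM in WT heart 94-2, where the next WT heart was at 5.48 TPM. Bst2 was at 26.73 TPM in WT heart 45-1, with the next at 36.71 TPM, and that heart was also the one with the most Alb and Myl7. Igtp was at 18.23 TPM in WWP2 Mut/Mut heart 33-1, with the next at 11.25 TPM, and the other 4 GTPases of the list were also at their highest there.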

How the results depend on the processing

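None of the 33 genes was called under any of the 34 alternatives. The number with an unadjusted p below 0.05, 4 as reported, was 2 with filterByExpr, with lane alone, without covariates and without covariates and WT heart 43-3, and it was 1 with library sizes alone, 0 with each of the 4 limma fits on TPM, 1 without the hearts with most Alb, 2 without the hearts with Myl7, and 1 to 6 with 1 heart left out. The number with a positive fold change, 29 as reported, was 16 with limma on log2(TPM + 1), 15 with a pseudocount of 0.1, 15 after rescaling each library to the same TPM sum and 18 without the TPM filter. Single fold changes crossed 0 in 100 instances over 19 genes, 51 of them with limma on TPM, and none for the 4 genes with an unadjusted p below 0.05. The number of genes called over all genes was 0 without the hearts with Myl7 and 1 to 2 with 1 heart left out. The median correlation in WT hearts was 0.588 in log2 CPM. The fits without the Myl7 and the Alb hearts, on rescaled TPM and without both the covariates and WT heart 43-3, and the RNA concentrations without that heart, were chosen after the data were seen. No paired analysis was possible because the genotypes share no replicate numbers. Oas3 and Mx1 rested on 6 to 53 counts per heart, which limits the precision of their fold changes.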

Other observations

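In WWP2 Mut/Mut heart 52-1, Stat2 (8.66 TPM) and Samd9l (4.19 TPM) were at their highest of all 18 hearts and Oas2 was at 6.03 TPM, while Ifit3 (4.69 TPM) and Zbp1 (0.47 TPM) were at the lowest of the WWP2 Mut/Mut hearts. In log2 CPM the deviations from the mean were 1.03 for Stat2, 0.62 for Samd9l, 0.98 for Oas2, -0.42 for Ifit3 and -0.97 for Zbp1, and Samd9l was then higher in WT heart 16-1. Among the WWP2 Mut/Mut hearts, heart 52-1 also had the highest Ptprc (2.45 TPM, with a median of 1.14), the highest summed markers of T and NK cells (2.58 TPM, median 0.97) and erythrocytes (2575 TPM, median 1025), and the highest gene body coverage fraction (0.0526, median 0.0434). Its sum of the 2 plasmacytoid dendritic cell markers was the highest too (2.51 TPM, median 0.88), but through Ly6d alone (2.42 TPM). Siglech was highest in WWP2 Mut/Mut heart 8-2, at 0.17 TPM. The part of these in the values was not tested.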
